A study of Mus musculus with 8 samples.

Results

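The genes described here are 10 genes of myostatin and activin signalling, measured in mouse gastrocnemius (GAS) muscle after prolonged depletion of MYTHO. They were chosen by name: *Mstn*, *Gdf11* and *Inhba* encode ligands, *Fst*, *Fstl3* and *Wfikkn2* encode secreted inhibitors of these ligands, *Acvr2a*, *Acvr2b* and *Acvr1b* encode receptors, and *Smad7* encodes an intracellular inhibitor. All 10 were found among the 21980 different symbol entries of the array table. Each had 1 probe set, the group of short probes that reads 1 gene. All 10 were flagged as expressed in both groups, as were 21222 of all 22206 probe sets. Male C57/Bl6j mice, about 10 weeks old, received an adeno-associated virus (AAV) by injection into the GAS. In the MYTHO-KD group the virus carried an sh-RNA, a short hairpin RNA, against the product of *D230025D16Rik*, the gene coding for MYTHO. In the scramble group it carried a scramble sh-RNA, injected into the opposite leg, so that muscles of both groups received virus. Both hairpins were driven by the U6 promoter, which is not restricted to muscle fibres. Muscles were taken 12 weeks later, at 22 weeks of age, and RNA of 4 muscles in each group was hybridized to Clariom S Mouse arrays.

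Myostatin is a secreted ligand of the TGF-β superfamily, made mainly by skeletal muscle fibres, and is best known for restraining muscle mass: animals that lack it are heavily muscled. Myostatin, the closely related GDF11 and the activins bind the type II receptors ACVR2A and ACVR2B, which recruit and activate a type I receptor such as ACVR1B (ALK4). The type I receptor phosphorylates SMAD2 and SMAD3, which enter the nucleus with SMAD4 and change transcription, while follistatin and related proteins trap the ligands outside the cell and SMAD7 blocks the receptor inside it.

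The signals of *Mstn* and *Gdf11*, 2 genes of common ancestry whose mature proteins are alike, differed between the groups in opposite directions. Their promoters are shown because they can be set side by side. They are the 250 bases before the RefSeq start of each gene (build GRCm38.p6), written 5′ to 3′ on the strand of the gene. Capitals mark the letters CCAAT, the box bound by NF-Y, TGACG, the core of a cyclic AMP response element, and TATAAA, the TATA box.
Mstn promoter, chr1:53061390-53061639, plus strand: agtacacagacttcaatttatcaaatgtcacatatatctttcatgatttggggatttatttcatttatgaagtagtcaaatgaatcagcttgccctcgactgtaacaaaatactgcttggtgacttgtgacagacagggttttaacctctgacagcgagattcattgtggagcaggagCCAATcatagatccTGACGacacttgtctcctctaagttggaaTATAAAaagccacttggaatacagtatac
Gdf11 promoter, chr10:128891719-128891968, minus strand: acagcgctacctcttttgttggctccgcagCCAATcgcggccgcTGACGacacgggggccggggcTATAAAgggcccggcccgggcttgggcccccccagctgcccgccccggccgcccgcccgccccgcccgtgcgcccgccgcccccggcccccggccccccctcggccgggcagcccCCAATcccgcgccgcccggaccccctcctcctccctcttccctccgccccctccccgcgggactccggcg

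Base composition separated these windows. The *Mstn* window was 38.4% G or C and held 3 CG pairs, and 9.03% of 32841 promoter windows of the same length had a lower share of G and C. The *Gdf11* window was 81.2% G or C with 33 CG pairs, and 99.1% of windows had a lower share. Both nevertheless held the 3 boxes in the same order on the strand of the gene, an arrangement found in 16 of the 32841 windows (0.0487%). *Gdf11* also held a second CCAAT, outside this order and after its TATAAA, 70 bases before the annotated start. The only CCAAT of *Mstn* began 72 bases before its own start. From the CCAAT ahead of TGACG to TGACG, the first letters lay 14 bases apart in both, a spacing found in 11 windows (0.0335%). The longest run common to both windows was the 10 bases CTGACGACAC, present in 7 windows. In *Gdf11* this pair of CCAAT and TGACG lay 148 bases farther from the annotated start than in *Mstn*. The letters TATAAA began 29 bases before the annotated start in *Mstn* but 185 bases before it in *Gdf11*. From TGACG to TATAAA the spacing was 29 bases in *Mstn* and 21 in *Gdf11*. Read on either strand, the CCAAT box occurs in 33.9% of windows, the cyclic AMP element core in 17.8% and the TATA box in 12.4%. CANNTG, the general E-box pattern that includes the sites of MyoD and myogenin, occurred at 4 places in *Mstn* and at 1 in *Gdf11*. It occurs at least 1 time in 66.2% of windows and 4 or more times in 3.84%. The sites read CAAATG or CACTTG in *Mstn* and CAGCTG in *Gdf11*, and which proteins bind them was not tested. CAGAC, the Smad-binding box, occurred at 2 places in *Mstn* and in no place in *Gdf11*, and occurs in 42.2% of windows. No sites of these 5 kinds overlapped in either window. The letters were picked after the sequences had been read, so the shares describe the windows and were not tested. Windows of 8 of the 10 genes were read in this way, all but *Fst* and *Smad7*. In the *Wfikkn2* window CANNTG also occurred at 4 places, while none of the 3 boxes in capitals occurred. That window, chr11:94242580-94242829, precedes the RefSeq start but lies inside the span that the array gives for the gene (94235952 to 94246005).

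Levels are on the log2 scale. Each is the authors' average of a group, with their standard deviation (SD) over its 4 arrays, since the table analysed holds these in place of single arrays. Averages ran from 3.18 to 19.93 over all probe sets, and the SDs had a median of 0.27 in MYTHO-KD and in scramble. Differences are MYTHO-KD minus scramble (log2), tested with the moderated test of limma computed from averages and SDs, and adjusted p-values are Benjamini-Hochberg values over all 22206 probe sets. A gene is called when it passes 2-fold with an unadjusted p under 0.05. *D230025D16Rik*, the target of the sh-RNA, averaged 7.71 in MYTHO-KD and 10.02 in scramble, which left 20.2% of the scramble signal (adjusted p = 0.0138, limma).

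Of the 3 ligand genes, *Mstn* was lower and *Gdf11* higher in MYTHO-KD, both past 2-fold, and the 95% interval of *Inhba* included 0. *Mstn*, on chromosome 1 from 53061663 to 53068079 (mm10, as in the array table), averaged 13.71 in scramble with an SD of 0.39. It averaged 12.45 in MYTHO-KD with an SD of 1.10. The knockdown group therefore had the lower average and the wider spread, and an SD as large as 1.10 was seen in 0.414% of probe sets in that group. The log2 difference of *Mstn* was -1.26 (95% interval -2.22 to -0.30, standard error 0.439), or 41.8% of the scramble signal. Its unadjusted p was 0.0142 and its adjusted p was 0.275 (limma). When the variance of each probe set stood alone, without moderation, its p was 0.0742, and with unequal variances it was 0.102, so the call of *Mstn* was lost in both. In bulk muscle, fewer cells of a type and less RNA per cell cannot be told apart.

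*Gdf11*, on chromosome 10 from 128882295 to 128891718, encodes growth differentiation factor 11, known for patterning the embryonic skeleton and able to activate the same receptors as myostatin. It averaged 8.23 in scramble with an SD of 0.67 and 9.62 in MYTHO-KD with an SD of 0.63, so both groups were similarly spread. Both SDs are wide for this table: 2.11% of probe sets had an SD at least as large in scramble, and 4.04% in MYTHO-KD. The log2 difference was 1.39 (95% interval 0.61 to 2.17, standard error 0.356), 2.62-fold higher in MYTHO-KD. Its unadjusted p of 0.00216 became 0.146 after adjustment (limma). The unadjusted p of *Gdf11* stayed under 0.05 in all 6 other settings of the fit, with values from 0.000874 to 0.0234. A larger rise than that of *Gdf11* was measured in 0.297% of all probe sets, and a larger fall than that of *Mstn* in 0.0946%.

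*Inhba*, on chromosome 13 from 16011851 to 16027264, encodes the βA subunit, a pair of which forms activin A. Its averages were 5.85 in scramble (SD 0.23) and 6.14 in MYTHO-KD (SD 0.27). The log2 difference of 0.29 had an interval from -0.12 to 0.70 and an unadjusted p of 0.152 (limma). These arrays therefore do not settle the direction for *Inhba*, and a 2-fold change in its signal lay outside the interval. Its averages were near 5.715, the limit set for dim probe sets, where a change in mRNA can be hidden.

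**Figure D1:**
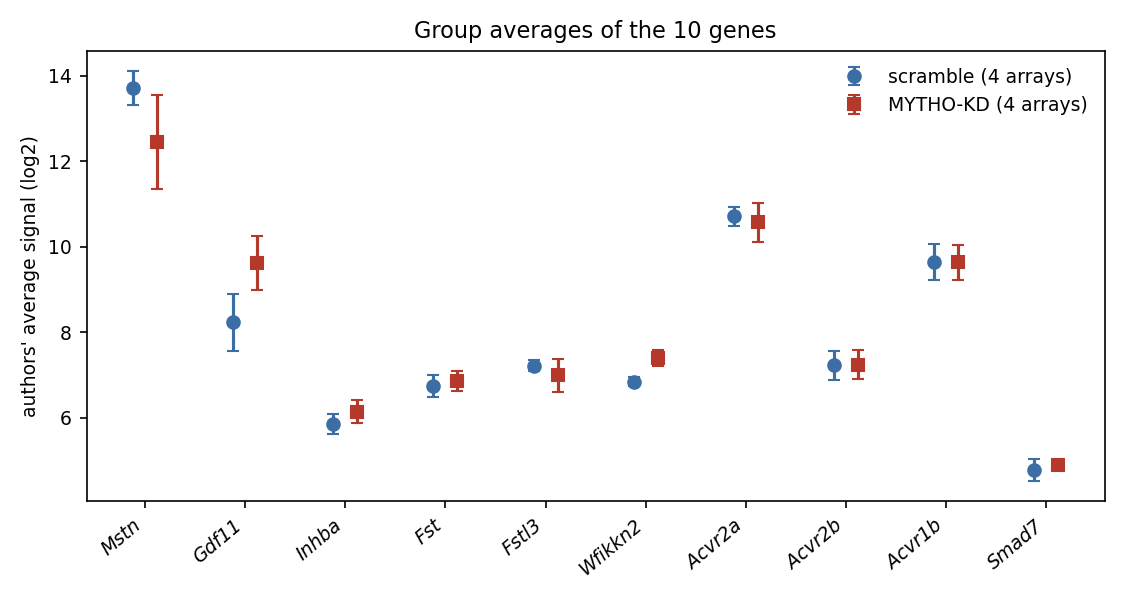
Authors' average signal (log2, vertical axis) of the 10 genes in scramble (circles) and MYTHO-KD (squares), with bars for the authors' SD over 4 arrays. *Mstn* is lower in MYTHO-KD (12.45 against 13.71) with a long SD bar, *Gdf11* (9.62 against 8.23) and *Wfikkn2* (7.39 against 6.84) are higher, and heights of different genes are not comparable because each has its own probes.

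Among the 3 secreted inhibitors, *Wfikkn2* was higher in MYTHO-KD, while the 95% intervals of the follistatin genes *Fst* and *Fstl3* included 0. *Wfikkn2*, on chromosome 11 from 94235952 to 94246005, encodes GASP-1, a protease-inhibitor domain protein that binds myostatin, its propeptide and GDF11. It averaged 6.84 in scramble with an SD of 0.10 and 7.39 in MYTHO-KD with an SD of 0.18. Both SDs are small for this table: 94.8% of probe sets had an SD at least as large in scramble, and 76.9% in MYTHO-KD. The log2 difference of *Wfikkn2* was 0.55 (95% interval 0.20 to 0.90, standard error 0.159), 1.46-fold higher and thus under 2-fold. Its unadjusted p was 0.0048 and its adjusted p was 0.189 (limma), and the unadjusted p stayed between 0.00176 and 0.00876 in the other settings.

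*Fst*, on chromosome 13 from 114452262 to 114458775, encodes follistatin, which encloses activins and myostatin and whose overexpression enlarges muscle. Its averages were 6.74 in scramble (SD 0.25) and 6.86 in MYTHO-KD (SD 0.24), a log2 difference of 0.12 with an interval from -0.29 to 0.53. *Fstl3*, on chromosome 10 from 79777272 to 79782630, encodes a follistatin-like protein that circulates bound to myostatin. It averaged 7.21 in scramble (SD 0.13) and 6.99 in MYTHO-KD (SD 0.38), a log2 difference of -0.22 with an interval from -0.66 to 0.22. The upper end for *Fst* and the lower end for *Fstl3* leave room for changes in signal under 2-fold in size but not for a 2-fold change in signal.

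The receptor genes had nearly the same averages in both groups. *Acvr2a*, on chromosome 2 from 48814109 to 48903269, averaged 10.71 in scramble (SD 0.22) and 10.57 in MYTHO-KD (SD 0.46). *Acvr2b*, on chromosome 9 from 119402444 to 119433518, averaged 7.22 (SD 0.34) and 7.24 (SD 0.33), and *Acvr1b*, on chromosome 15 from 101174072 to 101213678, averaged 9.64 (SD 0.43) and 9.63 (SD 0.40). The log2 differences were -0.14 for *Acvr2a*, 0.02 for *Acvr2b* and -0.01 for *Acvr1b*, with unadjusted p-values of 0.554, 0.929 and 0.969 (limma). Their intervals together spanned -0.64 to 0.54, so a 2-fold change in signal lay outside the interval of each receptor gene. *Smad7*, the gene of the inhibitory Smad that is itself switched on by the pathway, averaged 4.78 in scramble (SD 0.26) and 4.90 in MYTHO-KD (SD 0.06). Its log2 difference was 0.12, with an interval from -0.25 to 0.49 and an unadjusted p of 0.494 (limma). Its mean signal lay under 5.715, the limit set for dim probe sets, where a change can be hidden.

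**Figure D2:**
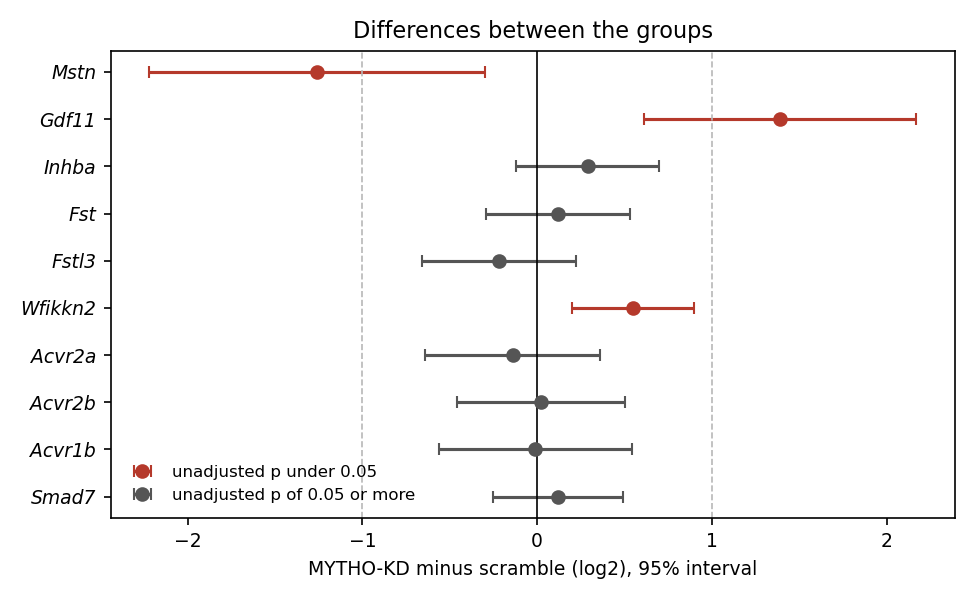
Log2 difference, MYTHO-KD minus scramble, of each of the 10 genes (points) with its 95% interval from the moderated test of limma (bars). Dashed lines mark 2-fold and red marks an unadjusted p under 0.05: the intervals of *Mstn* (-2.22 to -0.30), *Gdf11* (0.61 to 2.17) and *Wfikkn2* (0.20 to 0.90) leave out 0, and those of the other genes include it.

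Counted over all 10 genes, 6 had a higher and 4 a lower average in MYTHO-KD, with a median log2 difference of 0.07 against -0.01 over all probe sets. At an unadjusted p under 0.05, 2 of the 10, *Gdf11* and *Wfikkn2*, were higher, where 6.48% of all probe sets were, and 1 of the 10, *Mstn*, was lower, where 5.52% were. Past 2-fold as well there were 2 of the 10, *Gdf11* and *Mstn*, where 1.12% of all probe sets were called, 0.860% higher and 0.257% lower. No gene of the 10 had an adjusted p under 0.05 in limma (61 of all probe sets did, 0.275%), and the lowest adjusted p in any setting was 0.0724, for *Gdf11* with a trended and robust prior.

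Averages and SDs also bound where single arrays can lie. If the averages are plain means, none of 4 values can lie more than 1.5 SDs from its mean. For *Wfikkn2* this places the scramble arrays between 6.69 and 6.99 and the MYTHO-KD arrays between 7.12 and 7.66, so that the groups cannot overlap. The same holds for 2.29% of all probe sets. For *Gdf11* the scramble arrays could reach 9.24 and the MYTHO-KD arrays could go down to 8.67, and for *Mstn* the MYTHO-KD arrays could lie anywhere from 10.80 to 14.10 around scramble arrays between 13.12 and 14.30. Whether the groups overlap in these ligand genes is therefore not known, and if the authors' averages are of another kind it is not known for *Wfikkn2* either.

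**Figure D3:**
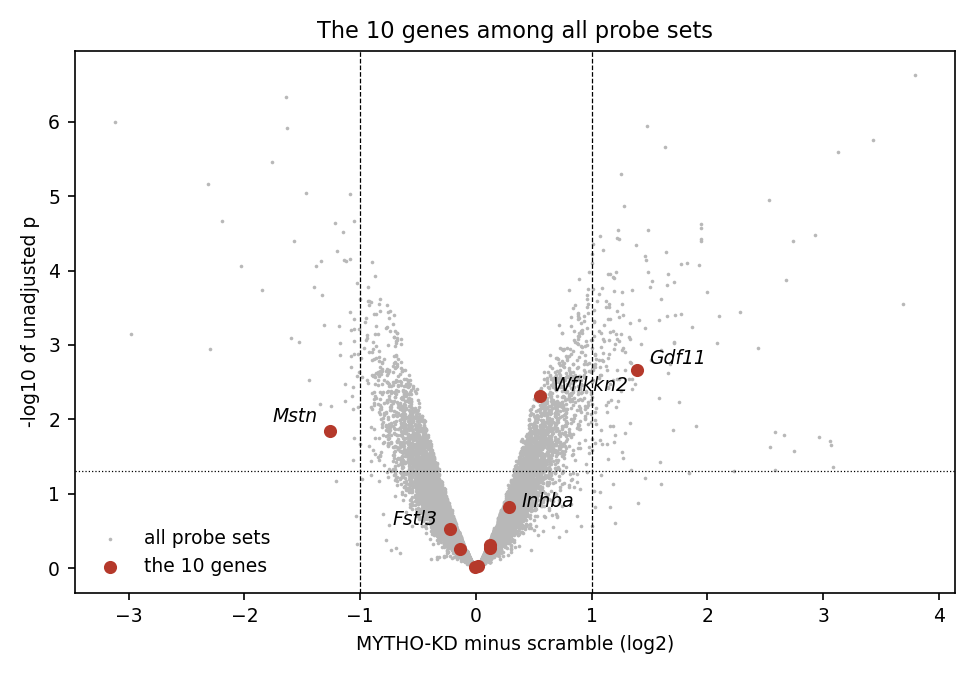
Log2 difference, MYTHO-KD minus scramble (horizontal axis), against -log10 of the unadjusted p of limma (vertical axis) for all 22206 probe sets (grey) and the 10 genes (red). *Gdf11* and *Mstn* lie outside the dashed 2-fold lines and above the dotted line of an unadjusted p of 0.05, *Wfikkn2* lies above that line inside 2-fold, and the other 7 genes lie below it.

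The rest of the pathway was read from 44 further genes, grouped by role, and all 44 had a probe set. Of these, 31 had a higher and 13 a lower average in MYTHO-KD, with a median log2 difference of 0.12. Over all 22206 probe sets, 10416 were higher and 11412 lower. At an unadjusted p under 0.05, 7 were higher (15.9%, against the 6.48% of all probe sets) and 1 was lower (2.27%, against 5.52%), and none of the 44 passed the adjustment over all probe sets in limma (lowest adjusted p 0.154, *Fn1*). Without moderation 5 of the 44 passed the unadjusted limit in either direction, and with unequal variances 3 did. These lists were drawn up with earlier results of these data known.

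Upstream of the receptors, *Inha*, the inhibin α subunit, which pairs with β subunits to oppose activin, was higher by 0.51 (7.05 to 7.56, adjusted p = 0.371, limma), while *Inhbb*, *Inhbc* and *Inhbe* differed by between -0.14 and -0.10. Of the 6 protease genes that mature these ligands, *Pcsk6*, which encodes the furin-like convertase PACE4, was higher by 0.66 (8.21 to 8.87, adjusted p = 0.344, limma). Both passed the unadjusted limit but not 2-fold, and neither passed it without moderation or with unequal variances. *Bmp1* and *Tll2*, whose tolloid proteases free myostatin from its propeptide, differed by 0.46 and -0.41 and did not pass it. None of the 6 other extracellular regulators passed an unadjusted p of 0.05. *Wfikkn1*, which encodes the second GASP protein, had a log2 difference of -0.29, and the matrix proteoglycan gene *Dcn* one of 0.28 (95% interval -0.16 to 0.72). The other type I receptor genes *Tgfbr1* and *Acvr1c* differed by -0.22 and 0.05, with 95% intervals that included 0.

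Inside the cell, *Smad2*, *Smad3* and *Smad4* differed by 0.48, 0.11 and 0.02, and *Smad2* came nearest to the limit (adjusted p = 0.432, limma). Of the 10 genes that restrain Smads, 9 had a higher average in MYTHO-KD, with a median of 0.23, but only *Ski* passed an unadjusted p of 0.05. *Ski*, a corepressor that binds SMAD2, SMAD3 and SMAD4, was higher by 0.59 (8.58 to 9.17, 95% interval 0.20 to 0.98, adjusted p = 0.209, limma), and it passed the unadjusted limit in all 6 other settings. *Skil*, its relative and a direct target of the pathway, differed by 0.49 with a scramble SD of 0.80 (95% interval -0.23 to 1.21).

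Of the 10 genes known to respond to SMAD2 and SMAD3, 8 had a higher average in MYTHO-KD, with a median of 0.62. At an unadjusted p under 0.05, 4 were higher, where 6.48% of all probe sets were. *Ltbp2*, counted among the higher genes, averaged 3.62 in scramble and 3.72 in MYTHO-KD, where it was not flagged as expressed. *Smad7* (0.12) and *Skil* (0.49), pathway targets placed in other lists, did not pass. *Cdkn1a*, which encodes the cell cycle inhibitor p21 and is also a p53 target, was higher by 1.75, from 8.98 (SD 0.58) to 10.73 (SD 1.29), with an adjusted p of 0.2 (limma). *Fn1*, the fibronectin gene, was higher by 1.35, from 9.44 (SD 0.53) to 10.79 (SD 0.77), with an adjusted p of 0.154 (limma). *Ccn2*, listed in the table as *Ctgf* and encoding connective tissue growth factor, was higher by 1.29, from 7.86 (SD 0.47) to 9.15 (SD 1.12), with an adjusted p of 0.283 (limma). These 3 genes passed 2-fold as well, and their SDs were larger in MYTHO-KD than in scramble. *Tgfbi*, a secreted matrix protein gene, was higher by 0.84 (adjusted p = 0.248, limma), while *Cdkn2b* (-0.10) and *Tagln* (-0.15) did not pass. With unequal variances *Cdkn1a*, *Ccn2* and *Tgfbi* no longer passed the unadjusted limit, and *Fn1* did, while without moderation *Ccn2* alone of these 4 no longer passed. Of the 3 muscle ubiquitin ligase genes, *Trim63*, which encodes MuRF1, was lower by a log2 difference of -0.44 (14.58 to 14.14, adjusted p = 0.381, limma). *Fbxo32*, which encodes atrogin-1, differed by -0.29 and *Fbxo30*, in the other direction, by 0.14, and neither passed.

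**Figure D4:**
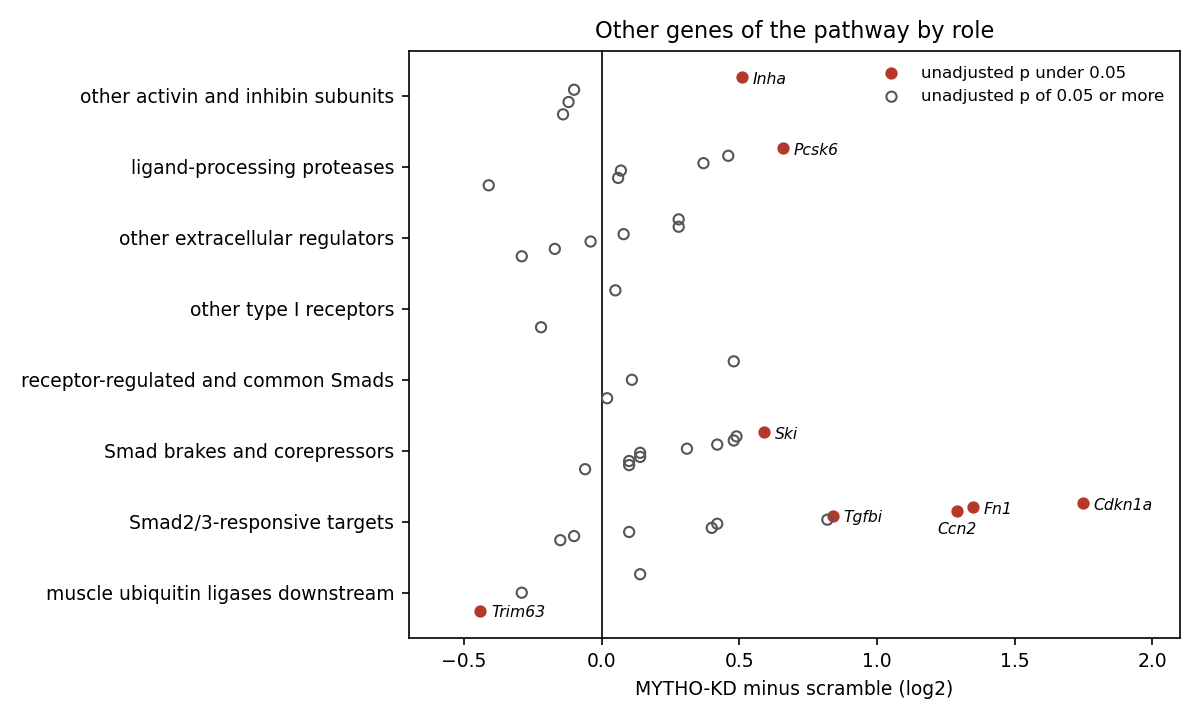
Log2 difference, MYTHO-KD minus scramble (horizontal axis), of 44 other pathway genes by role (rows); each circle is 1 gene, filled red and named where its unadjusted p in limma is under 0.05. *Cdkn1a* (1.75), *Fn1* (1.35) and *Ccn2* (1.29) lie farthest to the right, and *Trim63* (-0.44) is the 1 named gene to the left of 0.

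Cell-type markers moved beside these genes. All 8 fibroblast markers had a higher average in MYTHO-KD (median 0.51, mean of averages 9.74 against 9.11). *Lum* led with 1.49 (adjusted p = 0.0443, limma), then *Col3a1* with 1.43 (adjusted p = 0.102). At an unadjusted p under 0.05, 3 of 8 were higher, where 6.48% of all probe sets were. *Thy1* (0.03), *Pdgfrb* (0.09) and *Pdgfra* (0.18) were nearly level and did not pass. All 8 macrophage markers were higher as well (median 0.82, mean of averages 8.46 against 7.37), with 5 of 8 at an unadjusted p under 0.05. They were led by *Cd68* (2.53, adjusted p = 0.0182, limma) and *Lyz2* (1.94, adjusted p = 0.0277). Fibroblasts and macrophages make *Fn1* and *Tgfbi*, and fibroblasts make *Ccn2*, and the part of these cells in the target genes or in *Gdf11* was not tested. Of the 10 muscle fibre markers, 8 had averages of 19 or more, near the top of the scale of 19.93. Of these, *Acta1*, *Myh4* and *Atp2a1* stood at 19.93 in both groups, where neither a fall nor a rise can be seen. The markers with averages under 19, *Ckm* and *Myh1*, differed by -0.05 and 0.59, and *Actn3*, with the largest fall of the list, by -0.23. *Myh1* (95% interval 0.18 to 1.00, adjusted p = 0.23, limma) was the 1 fibre marker of 10 past an unadjusted p of 0.05. At that limit 6.48% of all probe sets were higher. The part of fibre RNA content in the lower *Mstn* was not tested. Every marker of these lists was flagged as expressed in both groups, as were 21222 of all 22206 probe sets.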

How the data were processed

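Clariom S Mouse arrays of GAS RNA (4 MYTHO-KD, 4 scramble) were processed by the authors in the Transcriptome Analysis Console at its default settings, and their methods name SST-RMA, whose signal space transformation changes how large a fold appears. The submitters' processing notes name RMA and the Expression Console. Deposited were, per probe set, 1 average and 1 SD of the log2 signal for each group. The table's comparison columns (fold change, p-value, false discovery rate) were not used, and 0 columns of single arrays were left unused. Arrays have no read depth, and 4 per group limit the precision.

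Groups come from the treatment labels. With limma 3.58.1 (R 4.3.3), the test used averages and SDs, since single arrays, for which it was planned, were not at hand: pooled variance, 6 residual degrees of freedom, squeezeVar (prior SD 0.284, prior degrees of freedom 5.85), two-sided p, Benjamini-Hochberg over 22206 probe sets. Variances of 0 were offset from 0 by squeezeVar. The test was checked on simulated arrays. The kind of average is not stated; if the averages are not plain means, p-values from averages and SDs are approximate. Both viruses were given to opposite legs of a mouse, but the labels do not tie muscles to mice. The test therefore treated all muscles as independent, and its p-values leave out the pairing of legs. Calls at 2-fold with an unadjusted p under 0.05 follow the methods.

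A gene with several probe sets was given by the one with the highest mean signal. All 10 genes are named, then pathway genes with an unadjusted p under 0.05 or otherwise up to 2 per list, and the 2 most changed markers. *Smad4*, *Inhbb*, *Inhbc*, *Inhbe*, *Bmp1*, *Tll2*, *Skil*, *Cdkn2b*, *Tagln*, *Ltbp2*, *Fbxo32*, *Fbxo30*, *Thy1*, *Pdgfrb*, *Pdgfra*, *Ckm*, *Acta1*, *Myh4* and *Atp2a1* were named after their values were seen. The genes and lists were chosen with earlier results of these data known. Promoters are from RefSeq (GRCm38.p6), and 32841 windows made of A, C, G and T alone gave the shares.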

Additional observations from a re-analysis of the deposited data

How the results depend on the processing

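The alternatives were no moderation, a trended and robust prior, unequal variances, leaving out dim probe sets (mean under 5.715), probe sets flagged as expressed in both groups, and 1 probe set per symbol. Log2 differences do not depend on these settings. Of the 10 genes, 9 kept their side of an unadjusted p of 0.05 in every setting run, *Smad7* being without a value once dim probe sets were left out, and *Mstn* did not keep it: the count of genes past 2-fold and p fell from 2 to 1 without moderation and to 1 with unequal variances, a setting that also leaves out moderation. Of the 44 other pathway genes 38 kept their side. The count at an unadjusted p under 0.05 went from 8 to 5 without moderation and to 3 with unequal variances, and that past 2-fold from 3 to 1 with unequal variances. Of all probe sets, 61 passed the adjusted limit of 0.05, against 2 without moderation, 2 with unequal variances and 189 with the trended and robust prior, and 1.5-fold in place of 2-fold raised the calls from 191 to 787 higher and from 57 to 500 lower; the cause of these shifts in the adjusted count was not tested. The *D230025D16Rik* difference kept its direction and its side of an unadjusted p of 0.05 throughout. Its adjusted p did not stay under 0.05: over the 6 other settings of the fit it ran from 0.0025, with the trended and robust prior, to 0.363.

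No paired analysis was possible because the table analysed holds group averages, and for the same reason no array was left out in turn and single arrays far from the rest were not looked for. Each of the 10 genes has 1 probe set, so a choice between probe sets could not change its value.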

Other observations

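The remaining marker lists describe other cells of muscle tissue. All 5 endothelial markers had a higher average in MYTHO-KD (median log2 difference 0.53), led by *Kdr*, a vascular endothelial growth factor receptor gene (0.75, adjusted p = 0.19, limma), and *Eng* (0.64, adjusted p = 0.364). Of the 8 markers of satellite cells and regenerating fibres, 5 were higher and 2 lower (median 0.17). *Mymk*, the fusion gene listed as *Tmem8c*, was higher by 1.77 (adjusted p = 0.0749, limma) and *Myh3*, the embryonic myosin gene, by 1.27 (adjusted p = 0.366), while *Pax7* (0.18) and *Myod1* (-0.40) did not pass. *Myh8* stood at the top of the scale in both groups and shows nothing. Of the 4 tendon markers *Thbs4* (1.90, adjusted p = 0.263, limma) passed an unadjusted p of 0.05 and *Tnmd* (1.03, adjusted p = 0.596) did not. The 4 adipocyte markers were all lower in average (median -0.51), led by *Cfd* (-0.78) and *Adipoq* (-0.69), and none passed (lowest adjusted p 0.805). None of the genes in this paragraph had an adjusted p under 0.05. *Pax7*, *Myod1* and *Myh8* were named after their values were seen.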
